A study of Mus musculus with 38 samples.

Results

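The developmental pluripotency associated genes Dppa2, Dppa3, Dppa4 and Dppa5a were followed through naive and primed mouse pluripotent cells and through the primed to naive transition. They were found by matching the Ensembl identifiers of the deposited gene tables to these symbols, which gave 4 of the 29267 genes in the tables. The series held 38 RNA libraries in 18 groups and asked what the transcription factor c-Jun does when primed cells turn naive. The naive groups were embryonic stem cells (ESC, n = 5) and iPSC lines from the transition (kiPSC, n = 2). Primed cells were epiblast stem cells (EpiSC, n = 4) and kEpiSC (n = 2), a stable EpiSC line that carries Klf4 behind a CAG promoter and an Oct4-GFP reporter. In the course of the transition, kEpiSC were moved into iCD1, a reprogramming medium, and collected on days 1, 2 and 3 without (kiPSC-iCD1) or with (kiPSC-iCD1-JNKi) SP600125, an inhibitor of the kinase JNK that acts upstream of c-Jun. These groups held 2 libraries each, except day 2 with inhibitor, which held 3. EpiSC-like cells were made from wild type ESC (WT-iEpiSC) and from ESC whose single Jun exon had been deleted with a pair of CRISPR guides (JunKO-iEpiSC). WT-kiEpiSC and JunKO-kiEpiSC are the matching cells labelled as reprogramming. For each, 1 library with no medium in its title and no day was taken here as primed. There were 2 libraries each after 3 days in iCD1 without and with JNKi. Which dose of the inhibitor was given for the RNA libraries, and whether a JunKO line was 1 clone, is not given in the sources used here. The labels do not say whether libraries of a group came from separate cultures; the paper calls its RNA replicates biological without describing how they were taken, so the p-values speak for the spread from library to library.

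Dppa2 and Dppa4 encode SAP domain proteins that bind chromatin together and keep a set of developmental promoters open to later activation; they are also known as activators of genes of the early cleavage embryo. Dppa3, also called Stella or PGC7, encodes a maternal factor that is made in oocytes, early embryos, germ cells and naive stem cells and protects DNA from changes in its methylation. Dppa5a, also called Esg1, encodes a small RNA-binding protein with a KH domain and is a widely used marker of undifferentiated mouse cells.

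In GENCODE M21 on mm10, Dppa4 (ENSMUSG00000058550) lay on the plus strand of chromosome 16 from 48283733 to 48294237, and Dppa2 (ENSMUSG00000072419) followed it on the same strand from 48303908 to 48319723, 9.7 kb further on. Both had 7 exons in the transcript read here. Dppa3 (ENSMUSG00000046323) lay on the plus strand of chromosome 6 from 122626410 to 122630272 with 4 exons, and Dppa5a (ENSMUSG00000060461) on the minus strand of chromosome 9 from 78367052 to 78368177 with 3 exons. No other annotated gene overlapped any of the 4.

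Copies of these genes elsewhere in the genome bear on how reads could be counted, so the coding parts are shown beside their nearest annotated copies. The sequences come from the GENCODE M21 transcripts and are written 5′ to 3′, with capitals where the pair differs. Dppa5a, from base 119 to base 208 of its coding part, and the pseudogene Dppa5b, on the same chromosome, differed at 1 of these 90 bases, and Dppa5c had the same letters as Dppa5b here. Dppa3, from base 3 to base 92, and the processed pseudogene Dppa3-ps on chromosome X differed at 2 of 90 bases.
Dppa5a: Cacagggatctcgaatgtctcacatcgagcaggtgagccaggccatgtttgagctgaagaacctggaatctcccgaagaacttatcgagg
Dppa5b: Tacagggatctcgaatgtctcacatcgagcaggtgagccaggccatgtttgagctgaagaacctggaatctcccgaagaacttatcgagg
Dppa3: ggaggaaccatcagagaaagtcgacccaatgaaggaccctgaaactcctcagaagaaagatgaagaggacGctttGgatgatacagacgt
Dppa3-ps: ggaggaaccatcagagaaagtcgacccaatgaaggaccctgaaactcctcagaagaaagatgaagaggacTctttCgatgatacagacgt

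Over the aligned part, Dppa5a was 97% identical to Dppa5b and to Dppa5c, and Dppa3 was 98.2% identical to Dppa3-ps. Of all 75-base words of the transcripts, the read length of the kit, 4.08% in Dppa3, 19.4% in Dppa5a, 23.7% in Dppa4 and 32.6% in Dppa2 were also found in a transcript of another gene. Pigp was the only one of those other genes in the tables, and the rest were pseudogenes that are not analysed here. Reads from such copies, if counted here, could therefore change the levels of Dppa2 and Dppa4 more than that of Dppa3. Whether they did was not tested. The expected count was within 0.005 of a whole number in 38 of 38 libraries for Dppa2, Dppa3 and Dppa4 and in 37 of 38 for Dppa5a.

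Dppa2 and Dppa4 resembled each other in 1 stretch of their coding parts, near the end. The longest stretch without a gap covered 87 bases, from base 749 of Dppa2 and from base 779 of Dppa4, of which 28 differed, and no 75-base word was shared between the 2 genes.
Dppa2: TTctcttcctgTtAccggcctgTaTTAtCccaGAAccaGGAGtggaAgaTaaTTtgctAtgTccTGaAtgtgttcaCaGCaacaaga
Dppa4: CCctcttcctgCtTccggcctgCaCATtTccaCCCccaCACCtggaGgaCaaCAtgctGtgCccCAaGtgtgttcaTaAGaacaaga

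Library totals ran from 2.165 M to 15.945 M expected counts, the RSEM estimate of reads per gene, and the shallowest library was EpiSC replicate 1. Marker lists separated the naive from the primed stem cells: the 15 naive genes listed summed to 2478 to 3361 TPM (transcript abundance per length, scaled within each library) in ESC and 47.5 to 86 TPM in EpiSC, and the 13 primed genes to 195 to 261 TPM in ESC and 1393 to 2503 TPM in EpiSC. Jun was at 66.5 to 240 TPM in the 4 WT libraries without inhibitor and at 5.1 to 14.6 TPM in the JunKO libraries without it. Klf4 was at 0.52 to 1.94 TPM in EpiSC, 65.2 to 103 TPM in kEpiSC and 36.3 to 36.6 TPM in the iEpiSC lines, whose names carry no k. It was at 62.6 TPM in WT-kiEpiSC and 40.1 TPM in JunKO-kiEpiSC. The iEpiSC libraries, used here as primed, thus did not look like EpiSC in this gene. Markers of other cell types varied as well. Among the EpiSC libraries the 8 fibroblast genes summed to 72 to 1308 TPM and the 8 primitive endoderm genes to 41.5 to 299 TPM, both lowest in EpiSC replicate 1, and the 8 trophoblast genes to 12.9 to 98.1 TPM, highest in that library. The trophoblast list went from 33.9 to 40.9 TPM in kEpiSC to 290 to 319 TPM on day 1 in iCD1 and 86.9 to 87.1 TPM on day 3. Their part in the results was not tested. Gene length minus effective length was about 73.5 bases in ESC replicates 1 to 4 and 133 to 192 bases elsewhere, which enters the TPM of the short Dppa5a transcript (619 bases). Whether it also affected the counts was not tested; with ESC replicate 5 as the only ESC library, ESC against EpiSC gave 8.05 for Dppa2, 12.16 for Dppa3, 3.82 for Dppa4 and 6.92 for Dppa5a on the log2 scale, each still called.

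**Figure D1:**
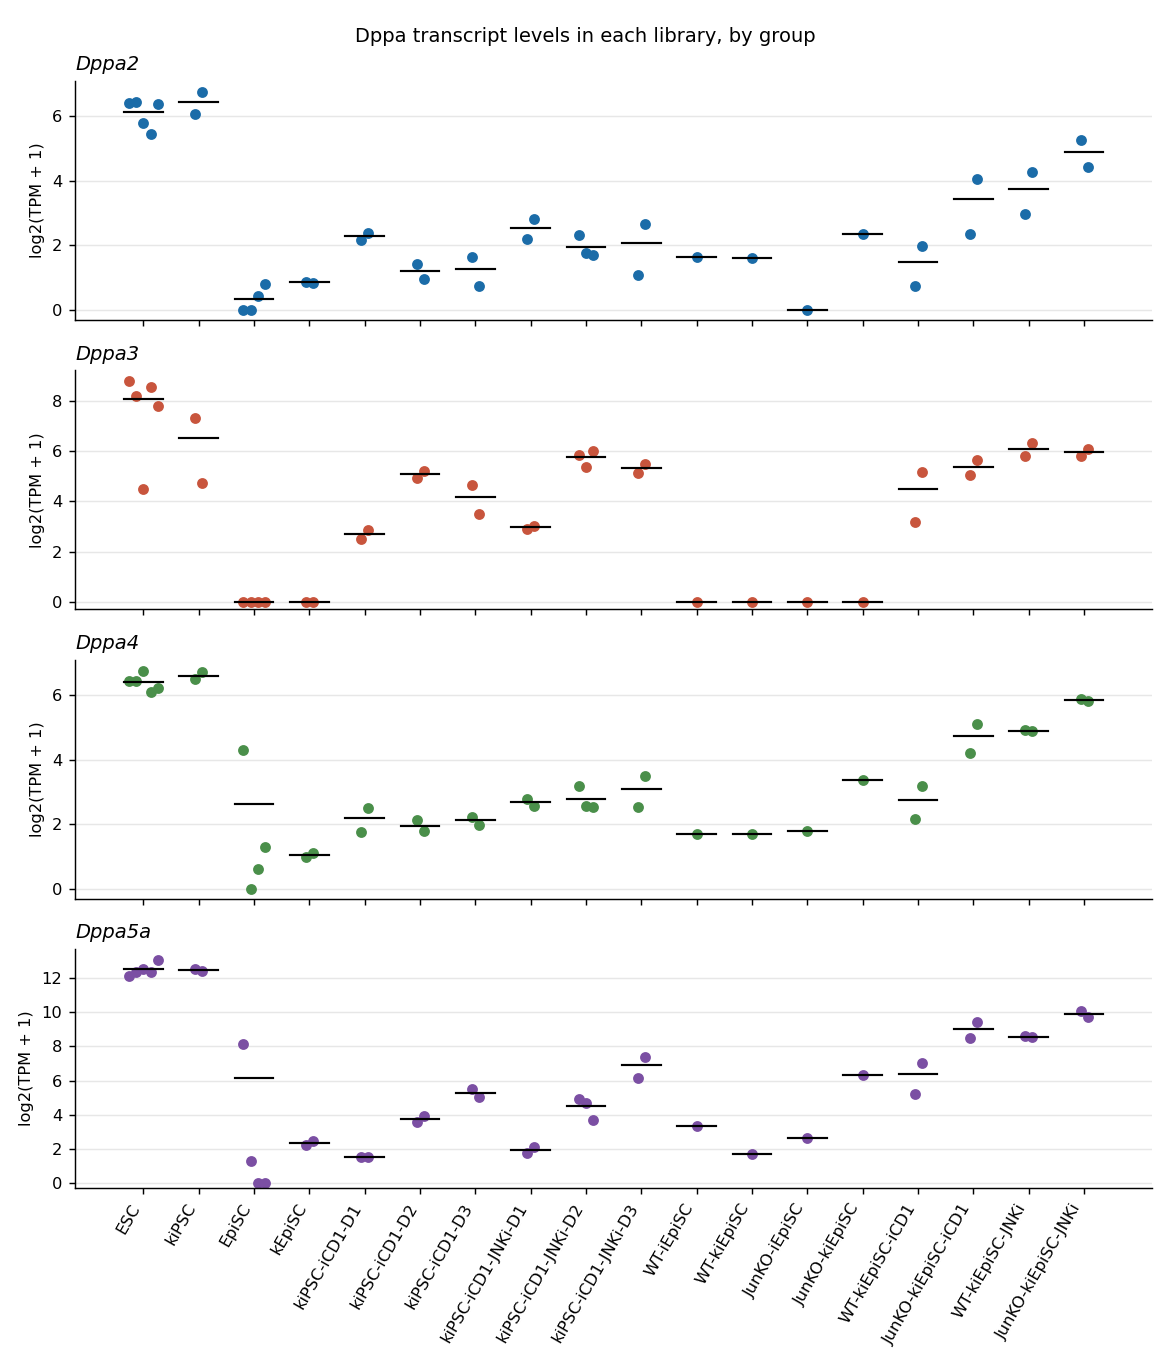
Level of each Dppa gene in every library, as log2(TPM + 1), for the 18 groups; points are libraries and bars the log2 of the group mean TPM plus 1. ESC and kiPSC stand highest for all 4 genes by mean, Dppa3 is at 0 in every primed group, and EpiSC replicate 1 stands apart for Dppa4 and Dppa5a.

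All 4 genes separated naive from primed stem cells, with Dppa5a the most abundant and Dppa3 the most sharply absent. Dppa5a was at 4457, 5262, 6007, 5214 and 8444 TPM in ESC replicates 1 to 5, and by its mean it ranked 8th of the 29267 genes. In EpiSC replicates 1 to 4 it was at 279, 1.48, 0 and 0 TPM. The ESC libraries all lay above the EpiSC libraries, and 1 EpiSC library held 161 of the 162 reads counted in that group.

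Dppa3 was at 434, 291, 21.2, 371 and 218 TPM in the ESC libraries and at 0 TPM in all 4 EpiSC libraries. ESC replicate 3 was lowest, yet it still lay above every EpiSC library. Dppa2 was at 83.8, 84.2, 53.8, 42.2 and 80.6 TPM in ESC and at 0, 0, 0.36 and 0.74 TPM in EpiSC. Dppa4 was at 86.1, 84.4, 107, 67.4 and 72.6 TPM in ESC and at 18.8, 0, 0.53 and 1.46 TPM in EpiSC. For both SAP domain genes the groups did not overlap, and Dppa4 in EpiSC replicate 1 stood apart from the other EpiSC libraries.

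By edgeR's quasi-likelihood test on the expected counts, with Benjamini-Hochberg adjustment over all genes tested, 4 of 4 Dppa genes were higher in ESC than in EpiSC. The background is large, since 50.9% of the 13923 genes tested were called, 27.1% of them all as higher. The 4 genes could pass the filter on low counts through the naive groups alone. Their count of calls is therefore not read against that share. Dppa2 gave a log2 fold change of 7.84 ± 0.47 (SE, adjusted p = 6.55e-08). As EpiSC held 3 reads of Dppa2 in all, its ratio of 252 had a 95% counting interval of 86.2 to 1220. Dppa3 was at least 355-fold higher, taken against 3 reads over the EpiSC group (adjusted p = 6.62e-04).

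Dppa4 gave 4.07 ± 0.71 (adjusted p = 4.09e-04) and Dppa5a 6.57 ± 1.07 on the log2 scale in that comparison, and both values rested on EpiSC replicate 1. Without this library they were 7.09 and 13.60. In EpiSC replicate 1, Dppa4 stood at 22.5% and Dppa5a at 4.75% of the ESC mean, while Dppa2 and Dppa3 were at 0. Of the 15 naive genes listed, Tdh (7.28% of the ESC mean), Zfp42 (2.04%), Esrrb (0.657%) and Tbx3 (0.17%) were above the other EpiSC libraries there. Esrrb (1.94 against 1.67 TPM) and Tbx3 (0.16 against 0.14 TPM) were so only barely. Tfcp2l1, Klf2, Klf5, Fgf4, Tet2, Gbx2, Fbxo15 and Nr5a2, the last with no read, were below the highest of the other EpiSC libraries. Nr0b1, Tcl1 and Prdm14 were at 0 in every EpiSC library. The list summed to 47.5 to 86 TPM over the EpiSC libraries. What part other cells had in this library was not tested.

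The lists of related genes were chosen with earlier results of these data known. Naive genes were higher in ESC for 14 of 15 (median log2 fold change 7.38, against 0.02 over all genes tested, and resting in part on genes with no EpiSC read) and primed genes lower for 13 of 13 (median -4.18). Germ cell factors were higher for 5 of 6, with Tfap2c, a transcription factor of the germ line, at 5.94 ± 0.42. The DNA methylation machinery was mixed, with 5 of 9 higher and 3 of 9 lower (median 0.46). Germline genes known to be silenced by methylation summed to 154 to 759 TPM in ESC and 3.36 to 11.6 TPM in EpiSC. Genes of the 2-cell-like state summed to 7.84 to 142 TPM in ESC and 0.45 to 1.99 TPM in EpiSC. Of these last lists, only 9 of 12 and 6 of 16 genes in the tables passed the filter on low counts, which they could do through ESC alone, so no count of calls is given.

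Bulk RNA does not tell fewer cells with a transcript from less transcript per cell, here or in any comparison that follows. The share of all genes whose groups did not overlap is not given for any comparison. Statements on overlap therefore describe the libraries only. In the iPSC that came out of the transition, no difference from ESC was detected in these genes. Dppa2 was at 65.2 and 105 TPM in the kiPSC libraries, Dppa3 at 156 and 25.5 TPM, Dppa4 at 88.9 and 103 TPM, and Dppa5a at 5815 and 5438 TPM. Every one of these genes overlapped between the groups, and edgeR called 0 of 4, with 0.144% of all genes called, and 0 of 4 at an unadjusted p under 0.05, and DESeq2 and limma also called 0 of 4.

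The intervals of those differences were wide for 3 of the 4 genes. For each gene the fit shares its estimate of the spread over ESC, EpiSC, kEpiSC and kiPSC. The outlying EpiSC replicate 1 thus enters the intervals of Dppa4 and Dppa5a, and its part in their width was not tested. The 95% interval of kiPSC against ESC was -0.32 to 0.93 on the log2 scale for Dppa2, -1.21 to 1.57 for Dppa4, -2.28 to 1.90 for Dppa5a and -3.77 to 0.54 for Dppa3. Dppa3 varied most within each naive group: ESC had a mean of 267 ± 160 TPM (SD, n = 5) and kiPSC 90.8 ± 92.3 TPM (SD, n = 2). Dppa5a in the same libraries varied far less, at 5877 ± 1536 TPM (SD, n = 5) and 5627 ± 267 TPM (SD, n = 2). In ESC replicate 3, where Dppa3 stood at 7.95% of the ESC mean, Dppa4 stood at 128% and Dppa5a at 102%.

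In the line with added Klf4 the 4 genes were far below their naive levels. In kEpiSC, Dppa2 was at 0.85 and 0.79 TPM, Dppa4 at 0.99 and 1.19 TPM, and Dppa5a at 3.6 and 4.59 TPM. Dppa3 had no read in either library, although these were the deepest of the series. Against EpiSC, edgeR called 0 of 4, against 1.26% of all genes, and Dppa5a had an unadjusted p of 0.0207. DESeq2 and limma also called 0 of 4. Dppa4 and Dppa5a gave -2.12 and -3.96 on the log2 scale, and 0.89 and 3.05 without EpiSC replicate 1, so their direction rested on that library.

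After the move to iCD1 the genes came up at different times and none reached its kiPSC mean by day 3. Dppa3 rose on day 1, as did Dppa2 and Dppa4, and stood highest of these genes by mean TPM on days 1 and 2. By reads on day 1 it was below them, with 34 beside 64 for Dppa2 and 45 for Dppa4. Dppa3 was at 4.6 and 6.31 TPM on day 1, 29.2 and 35.9 TPM on day 2 and 23.9 and 10.2 TPM on day 3. It thus stood at 35.9% of the kiPSC mean on day 2 and 18.8% on day 3, a mean that itself had a spread as large as its value.

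Dppa5a took another path. It was at 1.92 and 1.86 TPM on day 1, both below the kEpiSC libraries, then at 10.8 and 14.4 TPM on day 2 and at 44.9 and 31.8 TPM on day 3. Each day's libraries lay above those of the day before, but day 3 was still at 0.682% of the kiPSC mean. The gene that ends as the most abundant of the 4 was below Dppa3 on days 1 and 2, with a Dppa5a to Dppa3 ratio of 0.295 to 0.417, and above it on day 3, with 1.88 and 3.11. In kiPSC that ratio was 37.3 and 213.

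The SAP domain genes rose early and stayed far below their naive levels, and the Dppa2 libraries of day 2 lay below those of day 1. Dppa2 was at 3.48 and 4.24 TPM on day 1, 1.72 and 0.94 TPM on day 2 and 2.11 and 0.68 TPM on day 3. Dppa4 was at 2.42 and 4.72 TPM on day 1, 3.36 and 2.44 TPM on day 2 and 3.73 and 2.98 TPM on day 3. At day 3 they stood at 1.64% and 3.5% of the kiPSC means.

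**Figure D2:**
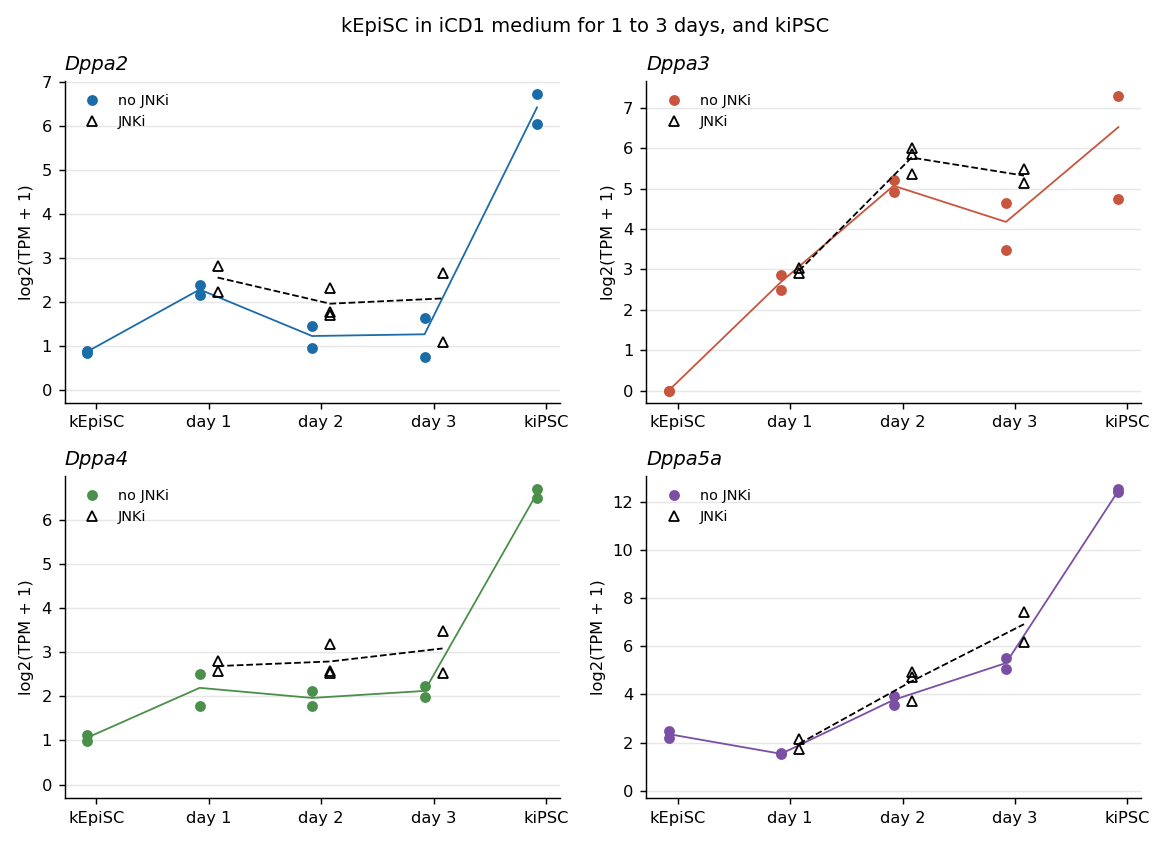
Each Dppa gene as log2(TPM + 1) in kEpiSC, on days 1 to 3 in iCD1 without (filled circles, solid line) and with JNKi (open triangles, dashed line), and in kiPSC; points are libraries and lines join the group means. Dppa3 steps up on day 2, Dppa5a climbs by the day, and Dppa2 and Dppa4 stay low through day 3, with the Dppa2 libraries of day 2 below those of day 1.

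By edgeR, 3 of 4 genes were higher on day 1 than in kEpiSC, where 46.3% of all genes were called and 23.2% were higher. Dppa2 gave 2.09 ± 0.55 on the log2 scale (adjusted p = 0.00548), Dppa4 1.58 ± 0.44 (adjusted p = 0.00814), and Dppa3 was at least 20.7-fold higher (adjusted p = 0.00373). The Dppa4 call was lost without kEpiSC replicate 1 (1.43, adjusted p = 0.0572) and without day 1 replicate 2 (1.04, adjusted p = 0.164). Dppa5a gave -1.19 ± 0.85 (adjusted p = 0.269) and rested on 8 reads on day 1.

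From day 1 to day 2, Dppa3 rose by 2.58 ± 0.69 (adjusted p = 0.0187) and Dppa5a by 2.70 ± 0.78 (adjusted p = 0.0261) on the log2 scale, 2 of 4 genes, where 16.5% of all genes were called and 7.1% were higher. Dppa2 gave -1.48 ± 0.59 (adjusted p = 0.107) and Dppa4 -0.24 ± 0.44. Both calls were lost when any 1 of the 4 libraries was left out, with values of 2.38 to 2.82 for Dppa3 and of at most 2.88 for Dppa5a. From day 2 to day 3 only Dppa5a passed, at 1.51 ± 0.46 (adjusted p = 0.0446), where 12.2% of all genes were called and 6.13% were higher, and this too was lost when any 1 library was left out (1.19 to 1.72).

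Over the whole 3 days, 3 of 4 genes were higher than in kEpiSC, where 50.6% of all genes were called and 25.2% were higher. Dppa3 was at least 64.5-fold higher (adjusted p = 1.72e-04), Dppa5a gave 3.02 ± 0.47 (adjusted p = 7.63e-05) and Dppa4 1.37 ± 0.48 (adjusted p = 0.0257). Dppa2 gave 0.64 ± 0.69, with an interval of -0.81 to 2.10. The Dppa4 call was lost in 3 of 4 fits that left out a library, without kEpiSC replicate 1 (1.23), without kEpiSC replicate 2 (1.56) and without day 3 replicate 1 (1.03).

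For Dppa2, Dppa4 and Dppa5a the larger part of the change on the log2 scale lay between day 3 and kiPSC, while Dppa3 had gone from no read to at least 64.5-fold by day 3. All 4 genes were higher in kiPSC, where 57.9% of all genes were called and 29.3% were higher: Dppa5a by 7.30 ± 0.35 (adjusted p = 1.86e-10), Dppa2 by 5.92 ± 0.53, Dppa4 by 4.97 ± 0.39 and Dppa3 by 2.52 ± 0.61 (adjusted p = 0.0025). Without kiPSC replicate 1 the Dppa3 value was 0.62 (adjusted p = 0.247). From kEpiSC to kiPSC, all 4 genes were higher, where 57.5% of all genes were called and 28.2% were higher, by 10.32 ± 0.40 for Dppa5a, 6.56 ± 0.51 for Dppa2, 6.34 ± 0.40 for Dppa4 and at least 404-fold for Dppa3. These comparisons share the day 3, kEpiSC and kiPSC libraries. Here too the genes could pass the filter on low counts through the groups where they were high.

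The related lists moved with parts of this course. On day 1 against kEpiSC, germ cell factors were higher for 4 of 6 (median 1.90, against 0.00 over all genes), where 46.3% of all genes were called and 23.2% were higher. Tfap2c led them at 4.73 ± 0.42. The paper shows Tfap2c among selected pluripotency genes, and Prdm14 was in the naive list too. The naive and trophoblast lists also summed higher on day 1 than in kEpiSC. Whether the change was particular to germ cell factors was not tested. Genes of the 2-cell-like state summed to 0.84 to 1.75 TPM in kEpiSC, 3.12 to 3.39 TPM on day 1, 0.98 to 1.35 TPM on day 3 and 68.8 to 70.2 TPM in kiPSC. The 8 genes of KH domain proteins and the subcortical maternal complex of the egg summed to 5.64 to 6.85 TPM in kEpiSC, 21.7 to 25 TPM on day 1, 26.9 to 42.7 TPM on day 3 and 122 to 178 TPM in kiPSC. Germline genes known to be silenced by methylation summed to 2.87 to 3.71 TPM in kEpiSC, 1.74 to 3.61 TPM on day 1, 2.3 to 3.67 TPM on day 3 and 310 to 419 TPM in kiPSC, so the libraries of days 1 and 3 overlapped those of kEpiSC. Naive genes were higher for 5 of 15 and lower for 4 of 15 on day 3 against kEpiSC, and higher for 14 of 15 in kiPSC. On day 3, 50.6% of all genes were called and 25.2% were higher. The naive list summed to 98.5 to 110 TPM in kEpiSC, 365 to 434 TPM on day 1 and 126 to 133 TPM on day 3.

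Cells given the JNK inhibitor had higher values of the 4 genes on day 3, without passing the test. With JNKi, Dppa5a was at 2.36 and 3.37 TPM on day 1, 29.4, 25.2 and 12.1 TPM on day 2 and 70.1 and 169 TPM on day 3. On day 3 both lay above the libraries without inhibitor, on day 2 the groups overlapped. Dppa3 with JNKi was at 6.45 and 7.18 TPM on day 1, 56.8, 39.9 and 63.6 TPM on day 2 and 34 and 43.9 TPM on day 3. On each of the 3 days its libraries with JNKi lay above those without.

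Dppa4 with JNKi was at 5.93 and 4.93 TPM on day 1, 8.05, 4.92 and 4.77 TPM on day 2 and 4.75 and 10.2 TPM on day 3. Dppa2 with JNKi was at 3.64 and 6.1 TPM on day 1, 3.98, 2.43 and 2.24 TPM on day 2 and 1.12 and 5.32 TPM on day 3. Dppa4 did not overlap on any day, while Dppa2 overlapped on days 1 and 3. The share of all genes that did not overlap is not given, so this describes the libraries only.

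On day 3, JNKi gave 1.60 ± 0.35 for Dppa5a, 1.15 ± 0.44 for Dppa4, 1.15 ± 0.64 for Dppa3 and 0.98 ± 0.69 for Dppa2 on the log2 scale. By edgeR, 0 of 4 passed (adjusted p = 1 for each), as did 0% of all genes. At an unadjusted p under 0.05, 498 genes were counted among the 14892 tested, Dppa5a at an unadjusted p of 3.56e-04 and Dppa4 at one of 0.0191 among them. DESeq2 called 3 genes in all, Dppa5a being 1 of them (1.66, adjusted p = 0.0138), and limma called 0. Without JNKi day 3 replicate 2, edgeR called Dppa5a (2.17, adjusted p = 0.0138), and without replicate 3 the value was 0.85.

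On day 1, JNKi gave 0.31 to 0.60 on the log2 scale, with 0 of 4 called, 0% of all genes called, 271 genes at an unadjusted p under 0.05 and 0 genes by DESeq2. On day 2 it gave 0.73 to 1.08, with 0 of 4 called by edgeR, DESeq2 or limma, against 0.00672% of all genes by edgeR, and Dppa4 alone was under 0.05 before adjustment, at an unadjusted p of 0.0196. The JNKi effect on day 3 minus that on day 1 was 0.55 to 1.01 over the 4 genes, and edgeR called 0 of them (0% of all genes, 339 genes at an unadjusted p under 0.05 and 1 gene by DESeq2). A change of the JNKi effect with time was not detected with 2 libraries a group.

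In the primed state, Dppa3 had no read in any of the 4 WT and JunKO libraries. Dppa2 was at 2.11 TPM in WT-iEpiSC, 2.05 TPM in WT-kiEpiSC, 0 TPM in JunKO-iEpiSC and 4.1 TPM in JunKO-kiEpiSC. Dppa4 was at 2.28, 2.28, 2.5 and 9.41 TPM in these libraries, and Dppa5a at 9.3, 2.22, 5.16 and 80.2 TPM. The JunKO-kiEpiSC library was the highest of the 4 for all genes with reads.

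With the line as a term in the fit, JunKO against WT gave 2.80 ± 1.14 for Dppa5a, 1.25 ± 0.63 for Dppa4 and -0.20 ± 1.17 for Dppa2. EdgeR called 0 of 4, against 0.335% of all genes, DESeq2 and limma also called 0, and Dppa5a had an unadjusted p of 0.0319. Without JunKO-kiEpiSC replicate 1 the value of Dppa5a was -0.83 and that of Dppa4 -0.04, and without WT-kiEpiSC replicate 1, which leaves the same pair of lines to compare, they were -0.83 and -0.03. The direction of both genes thus rested on the kiEpiSC pair.

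After 3 days in iCD1 all 4 genes had a higher mean in JunKO cells. Dppa5a was at 35.6 and 131 TPM in WT and at 354 and 688 TPM in JunKO. Dppa4 was at 3.51 and 8.05 TPM in WT and at 17.5 and 33.6 TPM in JunKO. Neither gene overlapped between the genotypes, and the share of all genes that did not overlap is not given.

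Dppa2 was at 0.68 and 2.92 TPM in WT and at 4.14 and 15.5 TPM in JunKO, and did not overlap. Dppa3 was at 7.92 and 34.7 TPM in WT and at 31.6 and 48.2 TPM in JunKO, so the genotypes overlapped.

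By edgeR, 2 of 4 genes were higher in JunKO, where 1.57% of all genes were called and 1.35% were higher: Dppa5a by 2.66 ± 0.55 (adjusted p = 0.0444) and Dppa4 by 2.17 ± 0.45 (adjusted p = 0.0436) on the log2 scale. Dppa2 gave 2.44 ± 0.94 (adjusted p = 0.289) and Dppa3 0.91 ± 0.52 (adjusted p = 0.53). The calls were near the threshold: DESeq2 kept Dppa4 and lost Dppa5a (adjusted p = 0.392), and limma on log2(TPM + 1) lost both (adjusted p = 0.0832 for Dppa4 and 0.278 for Dppa5a). Both were also lost without JunKO replicate 2 (1.59 for Dppa4 and 2.07 for Dppa5a), without WT replicate 1 (1.73 and 2.02) and without WT replicate 2 (2.82 and 3.88), in each of which the direction stayed.

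Of the naive genes listed, 6 of 15 were higher in JunKO cells in that comparison (median 2.45, against 0.00 over all genes), among them Zfp42, a zinc finger protein of naive cells (3.22 ± 0.51), and Esrrb, a nuclear receptor of the naive network (2.73 ± 0.52). The median of the 13 primed genes was 0.43. The summed naive list was at 330 and 560 TPM in JunKO and at 109 and 148 TPM in WT. Dnmt3l, a cofactor of de novo DNA methylation, was the only 1 of 9 methylation genes to pass, with no read in either WT library.

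**Figure D3:**
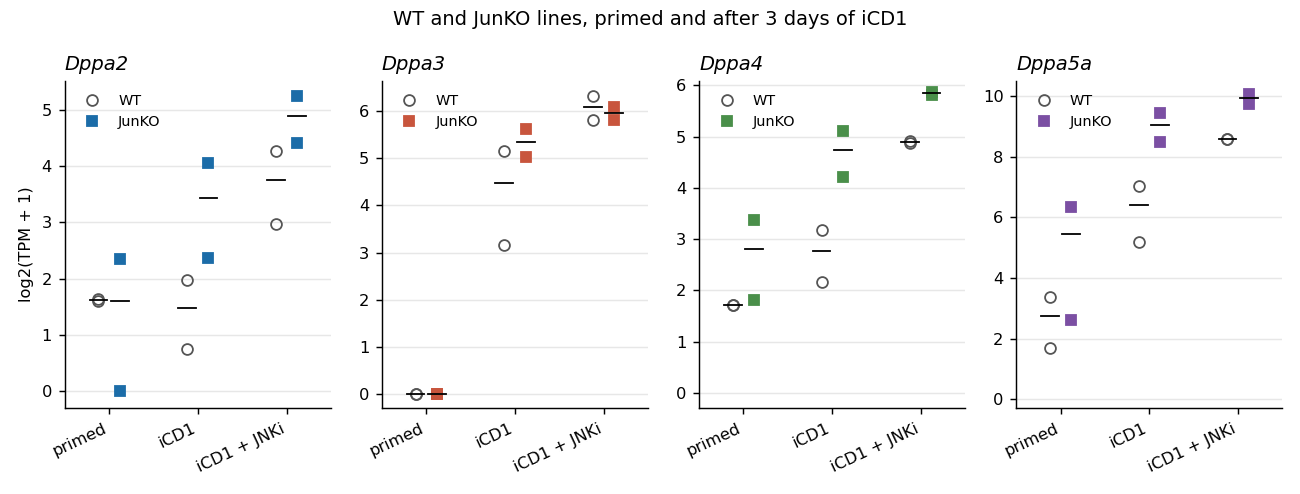
Each Dppa gene as log2(TPM + 1) in WT (open circles) and JunKO (filled squares) cells in the primed state (iEpiSC and kiEpiSC together), after 3 days in iCD1 and after 3 days in iCD1 with JNKi; points are libraries and bars the log2 of the mean TPM plus 1. Dppa3 is at 0 in the 4 primed libraries and similar in both genotypes with JNKi, while Dppa4 and Dppa5a are higher in JunKO in both media.

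Set against their own primed libraries, WT cells after 3 days in iCD1 were higher for 2 of 4 genes, where 30.9% of all genes were called and 16% were higher: Dppa5a by 4.22 ± 1.03 (adjusted p = 0.00998) and Dppa3 at least 16.4-fold (adjusted p = 0.00261). JunKO cells were higher for 3 of 4, where 28% of all genes were called and 15.5% were higher: Dppa5a by 4.09 ± 0.65 (adjusted p = 0.00108), Dppa4 by 2.24 ± 0.46 (adjusted p = 0.00446) and Dppa3 at least 30.9-fold (adjusted p = 8.65e-04). Dppa2 gave -0.13 ± 1.24 in WT and 2.51 ± 0.96 in JunKO (adjusted p = 0.0752). The latter was called by DESeq2 (2.76, adjusted p = 0.0239), without the filter (adjusted p = 1.02e-05) and in 1 fit over all libraries (2.53, adjusted p = 0.0295). Whether the genotypes differ in this change was not tested. Without WT-kiEpiSC replicate 1 the WT value of Dppa5a was 1.14 and its call was lost. Without WT-iEpiSC replicate 1 it was 7.01 and still called, and without WT replicate 2 of day 3 it was 2.98 and lost. Without JunKO-iEpiSC replicate 1 the JunKO values were 1.71 for Dppa5a and 1.40 for Dppa4, and both calls were lost. Without JunKO-kiEpiSC replicate 1 they were 7.57 and 3.40 and still called. The primed state of a genotype was its iEpiSC and kiEpiSC libraries together, with the line as a term. With either left out, the difference between the lines came from the other genotype alone. The values without a primed library are thus partly extrapolated from that genotype. When either primed library was left out, the Dppa3 call was lost in both genotypes (adjusted p = 1), though its fitted value hardly moved, at 7.71 to 7.74 in WT and 8.65 in JunKO.

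With JNKi on top of iCD1 the levels were higher again in both genotypes. Dppa5a was at 382 and 379 TPM in WT and at 1076 and 857 TPM in JunKO. Dppa4 was at 29.2 and 28.4 TPM in WT and at 57.7 and 55.3 TPM in JunKO. The JunKO libraries with JNKi came next after ESC and kiPSC among the 18 groups by mean for Dppa2, Dppa4 and Dppa5a.

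Dppa2 with JNKi was at 6.82 and 18.1 TPM in WT and at 36.9 and 20.2 TPM in JunKO. Dppa3 with JNKi was at 55.2 and 78.9 TPM in WT and at 55.1 and 66.9 TPM in JunKO. Dppa3 overlapped between the genotypes here and the other genes did not. Again no share of all genes stands beside this, so it describes the libraries only.

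In WT cells, JNKi gave 2.74 ± 0.93 for Dppa2, 2.33 ± 0.44 for Dppa4, 2.16 ± 0.55 for Dppa5a and 1.61 ± 0.51 for Dppa3 on the log2 scale. EdgeR called 0 of 4, against 0.471% of all genes, with Dppa4 nearest to the threshold (adjusted p = 0.0541). Each of the 4 had an unadjusted p under 0.05. How many of all genes did is not given for this comparison, so it is no result about the Dppa genes. DESeq2 called Dppa4 (2.35, adjusted p = 0.00526), as did edgeR with replicate number as a block (2.35, adjusted p = 0.0198), and limma called 0. In JunKO cells, JNKi gave 1.45 ± 0.71 for Dppa2, 1.09 ± 0.36 for Dppa4, 0.80 ± 0.47 for Dppa5a and 0.49 ± 0.48 for Dppa3. Of these, 0 of 4 were called by edgeR, DESeq2 or limma, against 0.0456% of all genes by edgeR, and Dppa4 had an unadjusted p of 0.0118.

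The JNKi effect in JunKO minus that in WT was -1.36 ± 0.72 for Dppa5a, -1.29 ± 1.18 for Dppa2, -1.25 ± 0.57 for Dppa4 and -1.12 ± 0.69 for Dppa3, so the 4 values lay on the same side. They share all their libraries. EdgeR called 0 of 4 and 0% of all genes, with 750 genes at an unadjusted p under 0.05, none of the 4 among them, and DESeq2 called 1 gene, not a Dppa gene. The interval for Dppa4 was -2.51 to 0.02. With JNKi in both arms, JunKO against WT gave 1.30 ± 0.48 for Dppa5a, 1.15 ± 0.69 for Dppa2, 0.92 ± 0.36 for Dppa4 and -0.20 ± 0.46 for Dppa3, with 0 of 4 called by edgeR, DESeq2 or limma, against 0.935% of all genes by edgeR, and Dppa4 and Dppa5a at unadjusted p of 0.0261 and 0.0204.

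**Figure D4:**
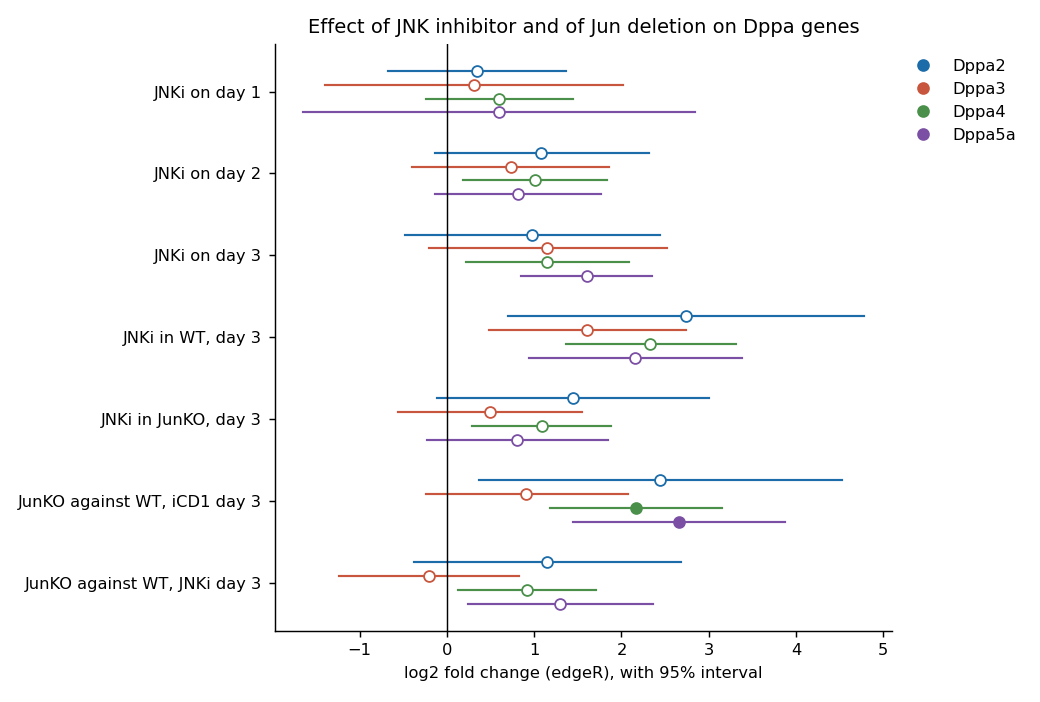
Log2 fold changes of the 4 Dppa genes by edgeR with 95% intervals, for JNKi against no JNKi and for JunKO against WT; filled circles passed an adjusted p of 0.05 and open circles did not. The comparison of the genotypes in the primed state is not plotted. The plotted values lie above 0 except for Dppa3 between the genotypes with JNKi, and only Dppa4 and Dppa5a in JunKO against WT in iCD1 are filled.

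The order of the groups differed between the genes. By mean, kiPSC led ESC for Dppa2 and Dppa4 and followed it for Dppa3 and Dppa5a, and in each case the 2 groups overlapped. Dppa2 and Dppa4 then fell in the same order, JunKO-kiEpiSC-JNKi (28.6 and 56.5 TPM), WT-kiEpiSC-JNKi (12.5 and 28.8 TPM) and JunKO-kiEpiSC-iCD1 (9.84 and 25.6 TPM). For Dppa2 the last 2 of these overlapped, and so did they for Dppa4. For Dppa5a, JunKO-kiEpiSC-iCD1 (521 TPM) stood above WT-kiEpiSC-JNKi (380 TPM), and these overlapped as well.

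Dppa3 ordered the groups in another way. WT-kiEpiSC-JNKi (67 ± 16.8 TPM) came next after ESC and kiPSC, followed by JunKO-kiEpiSC-JNKi (61 ± 8.33 TPM) and kiPSC-iCD1-JNKi-D2 (53.4 ± 12.2 TPM, SD, n = 3), and neighbours in this order overlapped. The lowest library with any Dppa3 read held 4.6 TPM, and 6 groups had none. Its lowest naive library, ESC replicate 3 at 21.2 TPM, lay below 15 of the 21 libraries with a Dppa3 read outside ESC and kiPSC.

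Across the 18 group means of log2(TPM + 1), Dppa2 and Dppa4 had Pearson's r = 0.93 and Dppa4 and Dppa5a r = 0.94, while Dppa3 had r = 0.71 to 0.73 with the others. Without ESC and kiPSC, over 16 groups, these were 0.87, 0.88 and 0.59 to 0.63. The groups share media, lines and depth, so these are descriptions only. The Dppa4 to Dppa2 ratio was 0.901 to 1.98 in ESC and 1.56 to 5.16 in the WT and JunKO libraries after 3 days in iCD1 without or with JNKi.

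The genes whose pattern was most like each member, among 11448 genes that reached 10 TPM in a group, were Zfp936 (r = 0.970), Nr0b1 and Tbx3 (both r = 0.959) for Dppa4 and Zfp936, Aoah (both r = 0.959) and Platr7 (r = 0.957) for Dppa2. For Dppa3 they were Zfp710, Gm53 (both r = 0.962) and Alpl (r = 0.952), the last being alkaline phosphatase, a stain for pluripotent cells. For Dppa5a they were Trim25 (r = 0.954), Pecam1 (r = 0.943) and Rec8 (r = 0.941). No other member of the 4 was among them, and Zfp936 was named for both SAP domain genes.

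The surroundings of the genes on their chromosomes differed. Dppa4, Dppa2 and Morc1, which encodes a germline repressor of transposons, lie side by side, and Morc1 was at 89.8 TPM in ESC, 0.24 TPM in EpiSC and 82.4 TPM in kiPSC by mean. Its log2 fold change in ESC against EpiSC was 8.49 ± 0.35 (adjusted p = 3.36e-09). On the other side, Nectin3, 1785.2 kb before Dppa4, was at 23.8 and 25 TPM, with -0.01 ± 0.22. Trat1 and Retnlb, further beyond Morc1, had no read in ESC, EpiSC, kEpiSC or kiPSC.

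Morc1 was also followed through the transition, and no difference between it and its neighbours was tested. On day 1 it gave 1.79 ± 0.86 against kEpiSC (adjusted p = 0.101), beside 1.58 for Dppa4 and 2.09 for Dppa2, and on day 3 2.82 ± 0.79 (adjusted p = 0.00744), at a mean of 0.93 TPM. In JunKO against WT in iCD1 it gave 2.83 ± 0.62 (adjusted p = 0.05), beside 2.17 ± 0.45 for Dppa4 and 2.44 ± 0.94 for Dppa2.

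Around Dppa5a, the nearest gene was Ooep, 7.9 kb away, which encodes another KH domain protein, of the oocyte. It was at 90.6 TPM in ESC and at 0 TPM in EpiSC, 12.30 ± 0.80 on the log2 scale (adjusted p = 1.21e-06), though as EpiSC had no read the fitted size depends on the prior count. Ddx43, 27.6 kb away, was also higher in ESC (4.55 ± 0.70), at 8.25 against 0.355 TPM, and so was Gsta2, at 4.37 against 0 TPM (adjusted p = 0.0209). Ooep was at 0 TPM on days 1 and 2 and at 0.375 TPM by mean on day 3 in iCD1, when Dppa5a had reached 38.4 TPM.

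Around Dppa3, Gdf3, a growth factor of the TGF-beta family, and Nanog, a core transcription factor of pluripotency, were the nearest genes on either side. Gdf3 was 5.62 ± 0.38 higher in ESC than in EpiSC on the log2 scale (adjusted p = 1.58e-07), and Nanog 1.80 ± 0.19 (adjusted p = 7.34e-06), while Slc2a3, a glucose transporter, gave 0.18 ± 0.42. During the transition the neighbours parted: on day 3 against kEpiSC, Nanog fell by 4.42 (± 0.60, adjusted p = 2.01e-05) and Gdf3 fell by 2.03 (± 0.49, adjusted p = 0.00266), when Dppa3 had gone from no read to 23.9 and 10.2 TPM. In JunKO against WT in iCD1, edgeR called Nanog (2.53 ± 0.46, adjusted p = 0.026), Gdf3 (3.72 ± 0.74, adjusted p = 0.0375) and Slc2a3 (0.89 ± 0.15, adjusted p = 0.0202). Dppa3 (0.91 ± 0.52) and Apobec1 (-0.11 ± 0.50) were not called there.

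**Figure D5:**
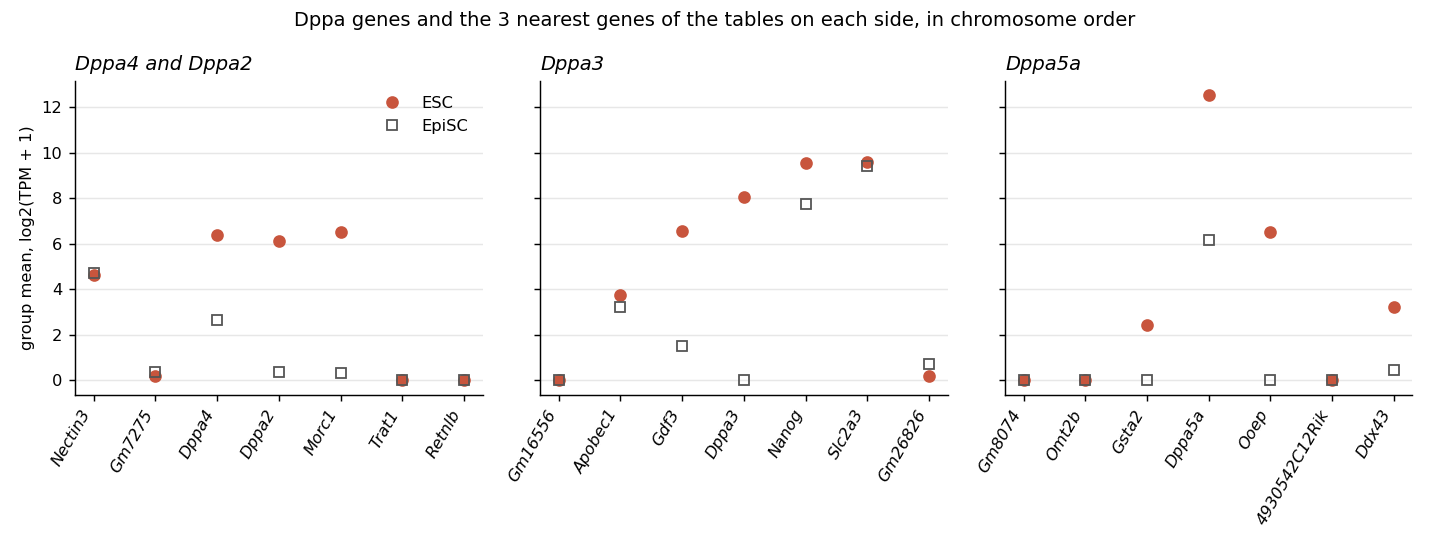
Mean level in ESC (filled circles) and EpiSC (open squares), as log2(TPM + 1), of the Dppa genes and the 3 nearest genes of the tables on each side, in chromosome order. Dppa4, Dppa2 and Morc1 form a run of genes high in ESC, and Dppa5a and Ooep, side by side, are high there too. Gsta2, next to Dppa5a, is low in both groups, at 4.37 TPM in ESC and 0 TPM in EpiSC. Nectin3, Apobec1 and Slc2a3 are similar in both groups. The EpiSC means of Dppa4 and Dppa5a rest on 1 library.

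Dppa1, the other gene of that name in the tables, lies on chromosome 11 and was close to absent. It had a read in 14 of 38 libraries, at most 4 reads and 3.67 TPM in 1 library, and its highest group mean was 1.09 TPM. Dppa5b, Dppa5c and Dppa3-ps are not analysed here.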

How the data were processed

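Gene tables of 38 libraries held, per the labels, values the authors made with Bowtie2 and RSEM on mm10, versions not given in the sources used here. Each deposited expected count is an estimate of a gene's reads in a library, and the deposited TPM divides it by effective length and scales each library to the same sum. Groups came from the sample titles. Expected counts were rounded to whole numbers and tested with edgeR 4.0.16 (R 4.3.3), quasi-likelihood, TMM scaling, a filter at 10 counts and Benjamini-Hochberg adjustment over all genes, called at 0.05, in 3 fits of 13, 17 and 12 libraries. All 4 genes passed the filter in each, which they could do through the groups where they were high. The fit was also run on simulated data, but the outcome is not given here, so this lends no weight to the calls. Alternatives were RLE size factors, DESeq2 1.42.0, limma 3.58.1 on log2(TPM + 1), no filter beyond 1 count, a replicate block, 1 fit over all libraries, ESC replicate 5 as the only ESC library and leaving out each library. Bounds set 3 counts over a group at 0, and intervals of ratios are 95% and cover counting error only. Other genes were named by rule: genes named Dppa, the 3 nearest on each side, the 3 most alike over group means, up to 4 called genes with the largest change from each list, and Jun and Klf4. The members and lists were chosen with earlier results of these data known.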

Additional observations from a re-analysis of the deposited data

Results flagged for a closer look

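EpiSC replicate 1 stood apart from the other 3 EpiSC libraries for a pair of genes: Dppa4 was at 18.8 TPM, where the highest of the others was 1.46 TPM, and Dppa5a was at 279 TPM, where the highest of the others was 1.48 TPM. Of 8 pairs of gene and group examined this way, chance would set apart about 1 in 20. Dppa2 and Dppa3 had no read in that library.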

How the results depend on the processing

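Library depth limited the low genes most, since the 2 primed WT libraries held 13 reads of Dppa2, 11 of Dppa4 and 9 of Dppa5a. With all 38 libraries in 1 fit, the count of Dppa genes called was 1 in kEpiSC against EpiSC, 0 in day 2 against day 1, 0 in day 3 against day 2, 1 in day 3 against kEpiSC, 0 in JunKO against WT in iCD1 and 1 in WT day 3 against primed. Without the filter it was 2 in day 3 against day 2, 1 for JNKi on day 3, 1 in JunKO against WT primed, 3 in JunKO against WT with JNKi, 4 for JNKi in WT, 3 for JNKi in JunKO and 1 for the difference of the JNKi effects. DESeq2 gave 1 for JNKi on day 3, 1 in JunKO against WT in iCD1 and 1 for JNKi in WT, and limma gave 0 in JunKO against WT in iCD1. For most of these counts the share of all genes called under the same setting is not given here. They cannot be set against a background and are no result about the Dppa genes. Among counts that moved by less than 1.5 times, Dppa2 in JunKO day 3 against primed gained a call by DESeq2, without the filter and in 1 fit over all libraries. The cause was not tested. Leaving out 1 library gave 0 to 0 for day 2 against day 1 and for day 3 against day 2, 0 to 1 for JNKi on day 3, 0 to 2 in JunKO against WT in iCD1, 0 to 2 in WT day 3 against primed and 0 to 4 in JunKO day 3 against primed.

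Same-numbered libraries had a median correlation of deviations of 0.02, 0.04 and 0.12 in the 3 fits, with lowest values of -0.05, -0.07 and -0.02, so the numbers were not taken to pair the samples. With replicate number as a block, 1 Dppa gene was called for JNKi in WT, Dppa4 (2.35), and Dppa4 in kiPSC against ESC was -0.14. No other call of a Dppa gene changed under the block.

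Directions turned only among values that were not called. Leaving out 1 library in turn, kEpiSC against EpiSC ran from -2.55 to 0.89 for Dppa4 and from -4.42 to 3.05 for Dppa5a, the highest being without EpiSC replicate 1. Dppa2 in kiPSC against ESC ran from -0.07 to 0.60. Dppa4 in day 2 against day 1 ran from -0.62 to 0.30. In day 3 against day 2, Dppa2 ran from -1.14 to 0.55 and Dppa4 from -0.31 to 0.28, and by limma Dppa2 was -0.01. Dppa2 in day 3 against kEpiSC ran from -0.53 to 1.14. For JNKi, Dppa2 ran from -0.13 to 0.68 on day 1 and from -0.41 to 2.15 on day 3, and the JNKi effect on day 3 minus day 1 ran from -0.76 to 1.80 for Dppa2 and from -0.09 to 1.08 for Dppa4. In primed JunKO against WT, Dppa2 ran from -5.82 to 0.93, Dppa4 from -0.04 to 1.97 and Dppa5a from -0.83 to 5.03. Dppa3 in JunKO against WT with JNKi ran from -0.40 to 0.04, and Dppa2 in WT day 3 against primed from -3.65 to 3.12. Both ends of the latter left out a WT primed library, so the line term there rested on the JunKO primed libraries alone. Of the single-gene values under the other settings, ESC replicate 5 as the only ESC library included, 463 kept direction and side of the threshold, 23 gained a call, 12 lost one and 2 turned.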
